A study of Mus musculus with 9 samples.

Results

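The genes described here are 10 genes that neutrophils use in quantity: the cytosolic proteins S100a8 and S100a9, the granule proteins Ngp and Camp, and the surface receptors Clec4d, Clec4e, Csf3r, Fpr1, Fpr2 and Trem1. They were chosen by gene symbol from a list of neutrophil cytosolic, granule and receptor genes, and all 10 were found among the 18875 genes of the deposited table. Expression was measured by mRNA sequencing of whole lung from wild-type mice of the inbred strain BALB/c, in 9 libraries that fall into 3 groups of 3. The long-term animals were given PM2.5, which is fine airborne particulate matter, into the nose at 10 mg/kg in 6 instillations spaced 3 days apart. Mice of the short-term group received 1 instillation at 10 mg/kg. The PBS group is labelled as long-term exposure to PBS (phosphate-buffered saline, the vehicle), with no number of instillations or interval recorded for it here. No PBS libraries labelled as short-term were analysed. How long after the last instillation the lungs were taken, and the age and sex of the mice, are not given in the sources used here, and the labels do not say that the 3 libraries of a group came from separate animals. The p-values therefore measure only the spread between these libraries, which may be technical.

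Neutrophils are short-lived white blood cells that leave the blood for inflamed tissue within hours, and the lung holds a large pool of them in its capillaries even at rest. S100a8 and S100a9 pair to form calprotectin, a calcium- and metal-binding complex that is among the most abundant proteins of the neutrophil cytosol. Ngp and Camp are made while the cell matures in bone marrow and are stored in secondary granules, and Camp encodes the mouse cathelicidin, an antimicrobial peptide precursor. Csf3r is the receptor for the granulocyte growth factor G-CSF, Fpr1 and Fpr2 sense formylated peptides of bacteria and mitochondria, Trem1 amplifies inflammatory signals, and Clec4e (Mincle) with its partner Clec4d senses glycolipids of microbes and signs of cell death. Several of these receptors are also made by monocytes and macrophages.

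Some of the members form neighbouring pairs in the mouse genome (GRCm38.p6). S100a8 (gene 20201, chromosome 3, 90669071 to 90670034) lies 22.6 kb from S100a9 (gene 20202, 90692630 to 90695721). Clec4d (gene 17474, chromosome 6, 123262107 to 123275268) lies 6.5 kb from Clec4e (gene 56619, 123281789 to 123289871), and Fpr1 (gene 14293, chromosome 17, 17876471 to 17883939) lies 3.9 kb from Fpr2 (gene 14289, 17887824 to 17893952). Camp (gene 12796, chromosome 9, 109847377 to 109849456) and Ngp (gene 18054, 110419808 to 110423012) are 570.4 kb apart, while Csf3r (gene 12986) is on chromosome 4, 126023441 to 126044975, and Trem1 (gene 58217) on chromosome 17, 48232713 to 48246927. The 250 bases before the transcript start are shown 5′ to 3′ for the neighbouring pairs whose members were both higher after short-term PM2.5, with sequences from RefSeq on GRCm38.p6. Capitals mark matches, on either strand, to 2 short motifs of factors that act in myeloid cells, GAGGAAG for PU.1 and TTNNGNAA for C/EBP proteins, and the motifs may overlap.
S100a8, chr3:90668821-90669070, plus strand: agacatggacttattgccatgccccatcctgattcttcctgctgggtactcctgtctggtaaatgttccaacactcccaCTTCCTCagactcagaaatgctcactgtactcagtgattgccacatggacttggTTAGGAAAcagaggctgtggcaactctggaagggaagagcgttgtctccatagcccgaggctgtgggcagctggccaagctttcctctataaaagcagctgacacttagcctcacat
S100a9, chr3:90695722-90695971, minus strand: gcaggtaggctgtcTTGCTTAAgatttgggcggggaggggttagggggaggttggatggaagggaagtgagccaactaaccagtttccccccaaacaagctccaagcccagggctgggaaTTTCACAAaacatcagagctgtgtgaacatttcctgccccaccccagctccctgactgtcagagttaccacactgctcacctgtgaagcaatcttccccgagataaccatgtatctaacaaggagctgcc
Clec4d, chr6:123261857-123262106, plus strand: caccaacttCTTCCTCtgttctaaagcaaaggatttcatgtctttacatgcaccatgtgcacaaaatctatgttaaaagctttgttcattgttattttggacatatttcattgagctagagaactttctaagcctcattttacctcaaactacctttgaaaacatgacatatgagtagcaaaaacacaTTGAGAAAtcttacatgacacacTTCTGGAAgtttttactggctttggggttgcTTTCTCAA
Clec4e, chr6:123289872-123290121, minus strand: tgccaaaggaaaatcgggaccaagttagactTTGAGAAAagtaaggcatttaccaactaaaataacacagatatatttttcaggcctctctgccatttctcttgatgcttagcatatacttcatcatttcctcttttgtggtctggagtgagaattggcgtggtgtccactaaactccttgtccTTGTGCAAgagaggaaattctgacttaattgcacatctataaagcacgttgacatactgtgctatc
S100a8 and Clec4d each held 1 match to GAGGAAG, while the C/EBP motif matched 1 time before S100a8, 2 times before S100a9, 3 times before Clec4d and 2 times before Clec4e. Windows of all 10 members were found in RefSeq. Of them 3 held GAGGAAG and 8 held TTNNGNAA, against 10.6% and 36.8% of 32851 mouse windows of the same length. The AP-1 motif TGANTCA was in 0 of the 10 windows and in 6.7% of all. These are matches of letters in a short window, given as a description.

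The deposited values are TPM, a share of a library's transcripts corrected for transcript length, which keeps no record of read depth. A fit needed 1 TPM in 3 or more libraries, and all 10 members were among the 13991 genes that passed. In the short-term libraries fewer genes reached 1 TPM (12560 to 13414, against 13829 to 13930 in the long-term and 13534 to 13615 in the PBS libraries), and long transcripts were lower. The median log2 difference from the PBS mean in the fifth of genes with the longest transcripts, minus that in the fifth with the shortest, was -0.80, -0.40 and -0.49 in short-term replicates 1, 2 and 3, against -0.11 to -0.08 in the long-term and -0.02 to 0.01 in the PBS libraries. The median difference over all tested genes, on the log2(TPM + 1) scale, was 0.03 between long-term PM2.5 and PBS, -0.34 between short-term PM2.5 and PBS and 0.41 between the long-term and short-term groups, and after median-ratio scaling it was -0.01, -0.05 and 0.08 in the same order. Median transcript length ran from 492 bases for S100a8 to 2535 for Trem1. Markers of lung were abundant in every library, with 6 alveolar type 2 cell markers summing to 46505 to 49542 TPM in long-term, 30041 to 35989 in short-term and 44352 to 45575 in PBS libraries.

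Single exposure against PBS asked how the lung stood after 1 dose. Of the 10 genes, 7 passed the test, beside 51.9% of all tested genes: 6 rose with short-term PM2.5 (S100a8, S100a9, Csf3r, Trem1, Clec4d and Clec4e), 1 fell (Fpr1), and Fpr2, Ngp and Camp did not pass the test. Over all tested genes 11.7% rose and 40.3% fell in this comparison (1632 and 5636 genes), a split that moved to 3428 and 3857 genes after median-ratio scaling. All short-term libraries lay above all PBS libraries for those 6 genes, as for 14.5% of all tested genes, and below them for Fpr1, as for 45.8%. The median difference of the 10 was 1.31 on the log2(TPM + 1) scale, beside -0.34 over all tested genes. Changes were called with limma at an adjusted p under 0.05 (Benjamini-Hochberg over all tested genes), and differences are given as group means on that scale ± SE. After median-ratio scaling, quantile normalization, or a correction of every library for length and GC content of the transcripts, 7 rose and 0 fell, Fpr2 joining the higher genes and Fpr1 losing its call. In bulk lung, more cells of a type and more RNA per cell cannot be told apart.

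**Figure D1:**
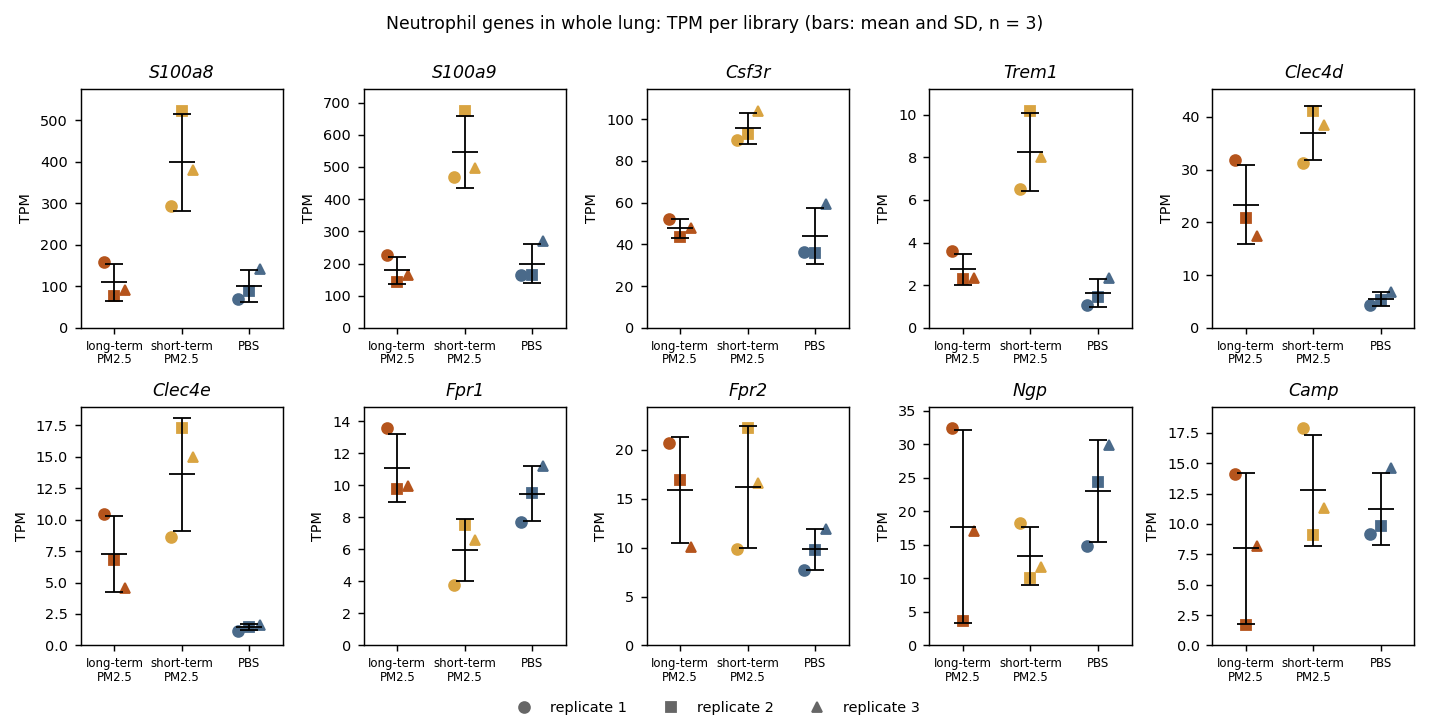
TPM of each of the 10 neutrophil genes (vertical axis, linear, from 0) in the 3 long-term PM2.5, 3 short-term PM2.5 and 3 PBS libraries; marker shape gives the replicate number and black bars the group mean and SD. S100a8, S100a9, Csf3r and Trem1 stand apart in the short-term group only, Clec4d and Clec4e stand above PBS in both exposed groups, and Ngp and Camp spread most widely in the long-term group.

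S100a8 and S100a9, the calprotectin genes, were the most abundant members. S100a8 had 293, 522 and 379 TPM in short-term libraries and 70.2, 88.6 and 142.9 TPM in PBS libraries. The lowest short-term library was above the highest PBS library, and the mean was 3.96-fold that of PBS (398 ± 116 against 101 ± 37.8 TPM, SD, n = 3 each). The log2 difference was 1.997 ± 0.318 (limma, adjusted p = 0.00105). S100a9 had 469, 674 and 497 TPM in short-term libraries and 164, 165 and 270 TPM in PBS libraries, again without overlap, a difference of 1.47 ± 0.23 (limma, adjusted p = 0.000995). With 6 long-term instillations neither stood apart from PBS. S100a8 had 159, 77.6 and 91.3 TPM in long-term libraries, replicate 1 above and the others within the PBS range, a difference of 0.11 ± 0.32 (95% interval -0.59 to 0.82, limma, adjusted p = 0.922). S100a9 had 227, 143 and 166 TPM in long-term libraries, which overlapped the PBS libraries, a difference of -0.15 ± 0.23 (95% interval -0.66 to 0.37, limma, adjusted p = 0.832). Set directly against short-term libraries, the long-term libraries were lower, with a long-term minus short-term difference of -1.88 ± 0.32 for S100a8 (limma, adjusted p = 0.00169) and -1.62 ± 0.23 for S100a9 (adjusted p = 0.000725). In both genes the short-term group was highest, and the long-term and PBS groups did not differ beyond their spread.

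Csf3r, the G-CSF receptor that supports neutrophil production and survival, had 89.7, 92.8 and 103.9 TPM in short-term libraries and 36.5, 35.7 and 59.5 TPM in PBS libraries. The groups did not overlap, and the means stood in a ratio of 2.18, a difference of 1.14 ± 0.18 (limma, adjusted p = 0.00112). Long-term libraries had 52.4, 43.3 and 47.7 TPM, inside the PBS range, with a difference from PBS of 0.16 ± 0.18 (95% interval -0.25 to 0.57, limma, adjusted p = 0.748) and from the short-term group of -0.98 ± 0.18 (adjusted p = 0.00275). Its ligand gene Csf3, which encodes G-CSF, had 0.18, 0.00 and 0.06 TPM in long-term libraries and 5.75, 6.47 and 5.04 TPM in short-term libraries, against at most 0.06 TPM in PBS libraries. The short-term group was higher than PBS by 2.69 on the log2(TPM + 1) scale. Csf3 reached 1 TPM only in short-term libraries, so it passed the filter through the group where it was high. No p-value is therefore given for it. Csf3 and its receptor were both highest in the short-term libraries.

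Trem1, a receptor that signals through the adaptor DAP12 (gene Tyrobp), had 6.53, 10.2 and 8.03 TPM in short-term libraries and 1.08, 1.43 and 2.35 TPM in PBS libraries, a ratio of means of 5.09 without overlap. The difference was 1.83 ± 0.23 (limma, adjusted p = 0.000327). Long-term libraries had 3.60, 2.30 and 2.33 TPM, with replicate 1 above and replicates 2 and 3 just below the highest PBS library. That difference was 0.53 ± 0.23 (95% interval 0.03 to 1.03) and did not pass (limma, adjusted p = 0.197), while the long-term libraries were lower than the short-term ones, with a difference of -1.30 ± 0.23 (adjusted p = 0.00187).

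Clec4d and Clec4e showed the largest increases among the members and were the 2 genes that rose in both exposed groups. Clec4e encodes Mincle, and Clec4d encodes MCL, which pairs with Mincle and like it signals through the Fc receptor gamma chain, the kinase Syk and Card9. Clec4d had 31.3, 41.2 and 38.4 TPM in short-term libraries and 4.41, 5.22 and 6.86 TPM in PBS libraries, a 6.72-fold ratio of means and a difference of 2.56 ± 0.23 (limma, adjusted p = 5.55e-05). Clec4e had 8.61, 17.3 and 14.9 TPM in short-term libraries and 1.18, 1.48 and 1.66 TPM in PBS libraries, a 9.45-fold ratio of means and a difference of 2.54 ± 0.29 (limma, adjusted p = 0.000251). In neither gene did the groups overlap.

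Repeated exposure against PBS asked what 6 doses left in the lung. Of the 10 genes, 2 passed, beside 11.2% of all tested genes: 2 rose with long-term PM2.5 (Clec4d and Clec4e), 0 fell and 8 did not pass the limma test, beside 9.51% of all tested genes that rose and 1.72% that fell (1330 and 241 genes, or 1426 and 1157 after quantile normalization). At an unadjusted p under 0.05 there were 3, the added gene being Trem1. All long-term libraries lay above all PBS libraries for the same 2 members, as for 25.9% of all tested genes, and below them for 0, beside 17.4%. The median difference of the members was 0.18 on the log2(TPM + 1) scale, beside 0.03 over all tested genes. Clec4d had 31.8, 20.9 and 17.4 TPM in long-term libraries, all above the highest PBS library, a 4.25-fold ratio of means and a difference from PBS of 1.88 ± 0.23 (limma, adjusted p = 0.00054). Clec4e had 10.5, 6.78 and 4.55 TPM in long-term libraries, likewise all above PBS, a 5.05-fold ratio of means and a difference of 1.70 ± 0.29 (limma, adjusted p = 0.0038). Both calls held in all 20 alternative settings, with adjusted p up to 0.00543 for Clec4d and 0.0235 for Clec4e. In the long-term group both genes were highest in replicate 1.

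**Figure D2:**
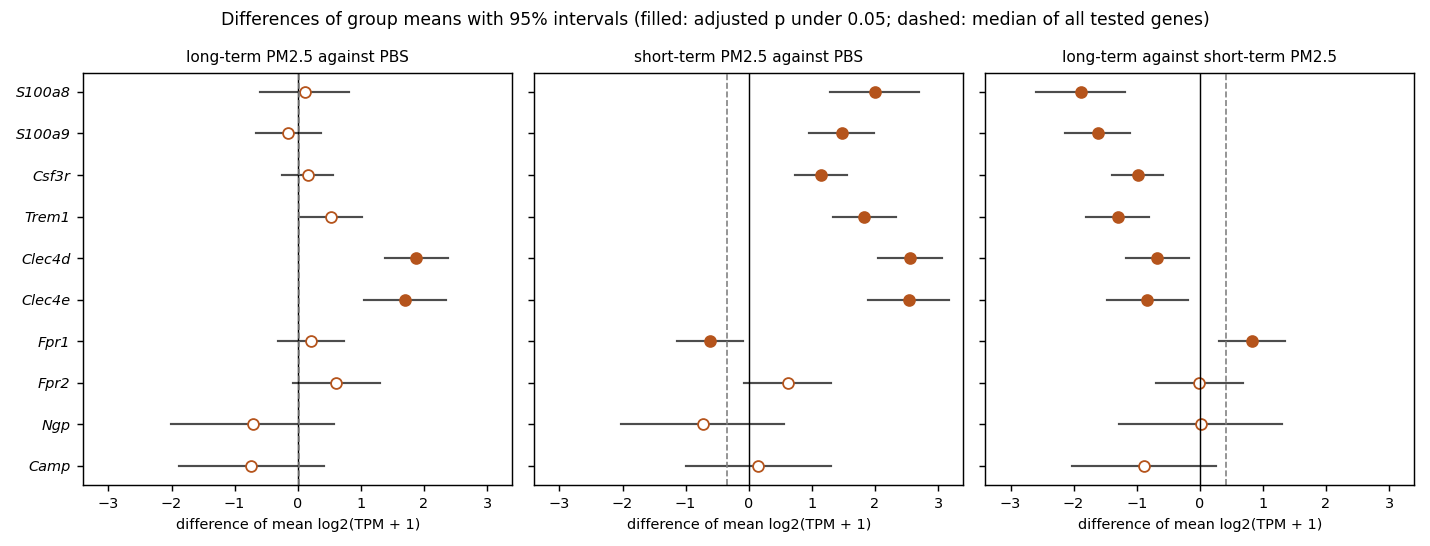
Difference of group means on the log2(TPM + 1) scale (horizontal axis) for each gene, with its 95% interval from the limma fit, in the 3 comparisons; filled points passed an adjusted p of 0.05 and the dashed line is the median over all tested genes. Filled points to the right of 0 are 2 genes for long-term PM2.5 against PBS and 6 for short-term PM2.5 against PBS, while 6 lie to the left of 0 between the exposed groups.

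Long-term against short-term PM2.5 compared the exposed groups directly. Here 7 of the 10 genes passed, beside 50.5% of all tested genes: 6 were lower in long-term libraries (S100a8, S100a9, Csf3r, Trem1, Clec4d and Clec4e) and 1 was higher (Fpr1), beside 7.08% of all tested genes that were lower and 43.4% that were higher (991 and 6070 genes, or 2763 and 3726 after median-ratio scaling). The members' median was -0.86, beside 0.41 over all tested genes. Among the 6, the long-term libraries of S100a8, S100a9, Csf3r and Trem1 all lay below the short-term ones, a pattern that 9.94% of all tested genes showed, while those of Clec4d and Clec4e overlapped them. The long-term libraries of Fpr1 all lay above the short-term ones, as for 50.2% of all tested genes. The differences for Clec4d, -0.68 ± 0.23 (limma, adjusted p = 0.0307), and Clec4e, -0.83 ± 0.29 (adjusted p = 0.0356), were the least secure. That of Clec4d lost its call without long-term replicate 2 or 3 or short-term replicate 3 (adjusted p = 0.0919, 0.119 and 0.081), and that of Clec4e lost it in 10 of 20 alternatives (adjusted p up to 0.135), among them without long-term replicate 2 or 3, short-term replicate 2 or 3, or any 1 PBS library.

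Fpr1 and Fpr2, the formyl peptide receptors, parted from each other after short-term PM2.5. Fpr1, the high-affinity receptor for formylated peptides, had 3.77, 7.52 and 6.60 TPM in short-term libraries and 7.73, 9.53 and 11.2 TPM in PBS libraries, all short-term values being below all PBS values. The difference of -0.62 ± 0.24 passed narrowly (limma, adjusted p = 0.0484), was -0.28 relative to the median of all tested genes, and lost its call in 15 of 20 alternatives (adjusted p up to 0.39), among them without any 1 library other than short-term replicate 2. The 3 scalings among these gave -0.32 (median-ratio), -0.16 (quantile) and -0.29 (length and GC correction), with adjusted p = 0.133, 0.39 and 0.0862. Fpr2, which also binds annexin A1 and serum amyloid A, had 9.81, 22.2 and 16.6 TPM in short-term libraries and 7.70, 9.80 and 11.9 TPM in PBS libraries, overlapping through short-term replicate 1. Its difference of 0.62 ± 0.31 did not pass as deposited (95% interval -0.07 to 1.31, limma, adjusted p = 0.115). It was 0.94, 1.03 and 0.91 under the same 3 scalings (adjusted p = 0.00938, 0.00551 and 0.00374) and 0.92 without short-term replicate 1 (adjusted p = 0.0131), all past the threshold.

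A ratio of 2 genes within a library does not move with that library's scaling. The Fpr2 to Fpr1 ratio of TPM was 1.53, 1.74 and 1.01 in long-term libraries, 2.60, 2.95 and 2.51 in short-term libraries and 0.996, 1.03 and 1.07 in PBS libraries. The receptors were at near-equal levels with PBS, Fpr2 was in excess after short-term PM2.5, and the long-term ratios lay between, reaching the PBS level in replicate 3. The short-term and PBS ratios gave the smallest p that 3 against 3 libraries allow in a two-sided exact permutation test (p = 0.1, adjusted 0.2 over the 12 ratio comparisons made), so no such ratio could pass 0.05. The median transcript length was 1324 bases for Fpr1 and 1008 for Fpr2. The log2 difference of Fpr2 minus that of Fpr1 for short-term PM2.5 against PBS was 1.24 as deposited and 1.2 after the length and GC correction. Fpr1 was higher in long-term than in short-term libraries (13.6, 9.75 and 9.97 TPM in long-term libraries), a difference of 0.82 ± 0.24 (limma, adjusted p = 0.0166). That call was lost with quantile normalization (adjusted p = 0.194), with the length and GC correction (0.0555) and without long-term replicate 1 (0.0709). Against PBS the long-term libraries differed by 0.20 ± 0.24 for Fpr1 (95% interval -0.32 to 0.73, limma, adjusted p = 0.741) and by 0.61 ± 0.31 for Fpr2 (-0.08 to 1.30, adjusted p = 0.297), with Fpr2 at 20.7, 17.0 and 10.1 TPM in long-term libraries.

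**Figure D3:**
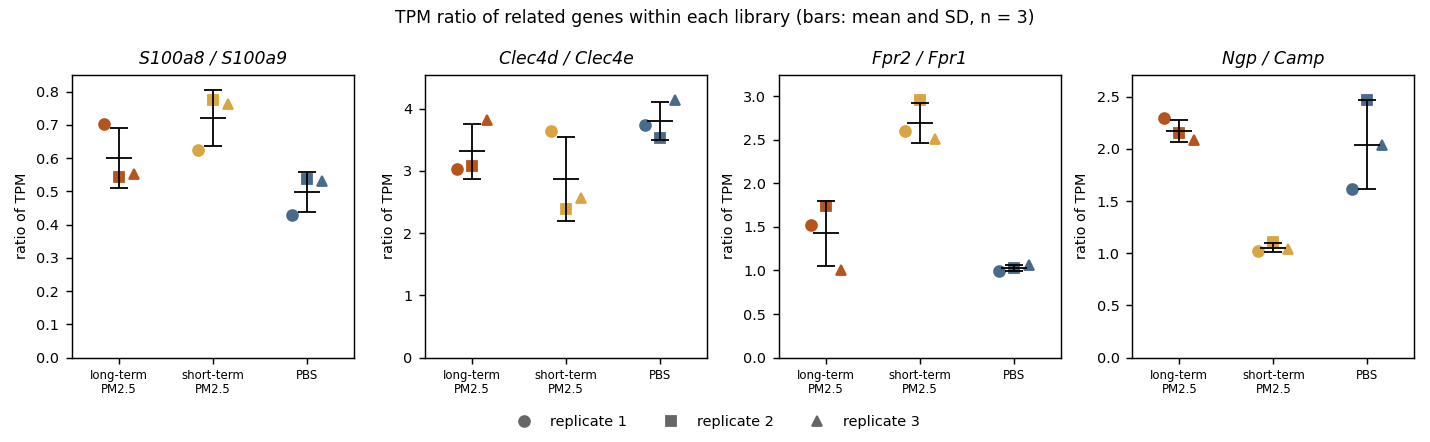
Ratio of TPM (vertical axis, linear, from 0) between related genes within each library, for long-term PM2.5, short-term PM2.5 and PBS libraries, with marker shape for the replicate number and bars for the group mean and SD (n = 3). Fpr2 over Fpr1 lies between 2.51 and 2.95 in short-term libraries and near 1.03 in PBS libraries, and Ngp over Camp lies between 1.02 and 1.11 in short-term libraries, below all others.

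Ngp and Camp, the secondary granule genes, did not follow the members that rose with short-term PM2.5. Ngp, which encodes neutrophilic granule protein, had 18.3, 10.1 and 11.7 TPM in short-term libraries and 14.8, 24.3 and 29.8 TPM in PBS libraries, a difference of -0.73 ± 0.58 (95% interval -2.02 to 0.56, limma, adjusted p = 0.308). Camp had 17.9, 9.08 and 11.3 TPM in short-term libraries and 9.16, 9.86 and 14.6 TPM in PBS libraries, a difference of 0.15 ± 0.52 (-0.999 to 1.30, adjusted p = 0.823). The groups overlapped in both genes, and the wide intervals leave sizeable changes in either direction possible. Long-term libraries were the most uneven, with 32.4, 3.61 and 17.1 TPM of Ngp and 14.1, 1.68 and 8.19 TPM of Camp in replicates 1, 2 and 3, so both genes were lowest of all 9 libraries in long-term replicate 2. S100a9 was also lowest of all 9 libraries in that replicate (143 TPM), while S100a8 (77.6 TPM) and Csf3r (43.3 TPM) were not. The long-term minus PBS difference was -0.72 ± 0.58 for Ngp (limma, adjusted p = 0.594) and -0.74 ± 0.52 for Camp (adjusted p = 0.507). Without that replicate it was 0.09 for Ngp and -0.02 for Camp, and neither passed. Between long-term and short-term libraries Camp differed by -0.89 ± 0.52 (limma, adjusted p = 0.169), which passed without long-term replicate 1 (-1.42, adjusted p = 0.0453). For all 10 genes long-term replicate 1 was the highest long-term library and PBS replicate 3 the highest PBS library. The short-term libraries had no such shared order: Ngp and Camp were highest in replicate 1 and lowest in replicate 2, Csf3r was highest in replicate 3, and the other members were highest in replicate 2.

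The ratio of Ngp to Camp set the short-term group apart although neither gene did. It was 2.29, 2.15 and 2.09 in long-term libraries, despite the wide spread of the single genes, 1.02, 1.11 and 1.04 in short-term libraries and 1.62, 2.47 and 2.04 in PBS libraries. Short-term values lay below those of both other groups (two-sided exact permutation p = 0.1 against each, the smallest possible, adjusted 0.2). The median transcript was longer for Ngp (1222 bases) than for Camp (758), and the log2 difference of Ngp minus that of Camp for short-term PM2.5 against PBS was -0.88 as deposited and -0.69 after the length and GC correction. S100a8 over S100a9 was 0.703, 0.543 and 0.551 in long-term libraries, 0.623, 0.774 and 0.763 in short-term libraries and 0.428, 0.537 and 0.530 in PBS libraries, the values of both exposed groups lying above all PBS values (exact permutation p = 0.1 and adjusted 0.2 for each) and overlapping each other. The ratio of Clec4d to Clec4e, 3.04 to 3.82 in long-term, 2.38 to 3.64 in short-term and 3.53 to 4.13 in PBS libraries, overlapped between all groups.

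Across the 9 libraries the members varied around a shared profile to unequal degrees. The Pearson correlation of a gene with the mean standardised level of the other 9 was 0.91 for S100a8, 0.89 for Trem1, 0.84 for Csf3r, 0.83 for S100a9, 0.77 for Clec4e and 0.75 for Clec4d. It was 0.60 for Fpr2, 0.34 for Camp, -0.02 for Ngp and -0.36 for Fpr1. These values describe 9 libraries that share 3 groups and a common scaling. The 5 other genes most like the mean profile of the members, at a mean of at least 5 TPM, were Il2rg, Ndufa9, Cops9, Pilrb2 and Hpf1, with correlations from 0.936 to 0.944 over the 9 libraries. Their differences for short-term PM2.5 against PBS were smaller than those of most members that rose, at 0.41 for Ndufa9 to 1.22 for Pilrb2.

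Other neutrophil genes were read from lists of related genes. Among 10 neutrophil markers, 9 of which were tested, 8 rose and 0 fell with short-term PM2.5, and 2 rose and 0 fell with long-term PM2.5. Over all tested genes 11.7% rose and 40.3% fell with short-term PM2.5, and 9.51% rose and 1.72% fell with long-term PM2.5. All 10 markers are also in the lists of granule and surface proteins below, so those counts are not separate from this one. The marker counts were not repeated in the alternative settings, so how far they depend on single libraries is not known. The summed level of the 10 markers was 140 to 213 TPM in long-term, 198 to 287 in short-term and 83.8 to 104 in PBS libraries. Ly6g, the surface marker that defines mouse neutrophils, was low everywhere, with 0.84, 0.56 and 1.47 TPM in long-term, 2.20, 3.30 and 2.26 in short-term and 1.11, 1.2 and 1.86 in PBS libraries. It rose with short-term PM2.5 by 0.59 (limma, adjusted p = 0.0337, call lost in 5 of 19 alternatives, among them without short-term replicate 2 or 3 or PBS replicate 1 or 2) and differed by -0.30 with long-term PM2.5 (adjusted p = 0.479). The chemokine receptor genes Cxcr1 and Cxcr2 were each high in a different exposed group. Cxcr2 had 8.32, 6.73 and 8.02 TPM in long-term, 15.7, 24.0 and 19.9 TPM in short-term and 6.28, 7.59 and 9.47 TPM in PBS libraries (short-term minus PBS difference 1.25, limma, adjusted p = 0.000948). Cxcr1 had 20.3, 15.9 and 10.2 TPM in long-term, 0.65, 2.52 and 2.79 TPM in short-term and 0.87, 2.12 and 0.52 TPM in PBS libraries (long-term minus PBS difference 2.94, limma, adjusted p = 0.000675). The 2 neutrophil markers that rose with long-term PM2.5 were Cxcr1 and Cd177. Of the genes of early (primary) granules, Mpo reached at most 1.51 TPM, Elane at most 1.09 TPM and Ctsg at most 0.84 TPM in any library, and none of these 3 passed the filter on low values. Prtn3, which encodes proteinase 3 of the same granules and was added after its values were seen, was higher, with 3.52, 2.17 and 2.07 TPM in long-term, 5.01, 3.35 and 4.45 TPM in short-term and 1.88, 2.81 and 4.70 TPM in PBS libraries.

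The lists of granule and surface proteins hold all 10 neutrophil markers, so their counts repeat genes counted above. They are set beside the 11.7% of all tested genes that rose with short-term and the 9.51% that rose with long-term PM2.5. Of the granule and secreted proteins that are not members, 11 tested genes, 8 rose and 0 fell with short-term PM2.5 and 5 rose and 0 fell with long-term PM2.5. Without PBS replicate 1 or 2 the first count was 5. Lcn2, encoding lipocalin 2, an iron-scavenging protein of neutrophil granules that lung epithelium also makes, was the most abundant, with 1909, 1453 and 1282 TPM in long-term, 8878, 7789 and 9001 TPM in short-term and 184, 366 and 272 TPM in PBS libraries. It rose by 5.01 with short-term PM2.5 (limma, adjusted p = 6.85e-07) and by 2.53 with long-term PM2.5 (adjusted p = 0.000111). Ltf, encoding lactoferrin, another secondary granule protein that airway glands also secrete, had 213, 141 and 217 TPM in long-term, 38.6, 52.3 and 26.5 TPM in short-term and 10.7, 17.2 and 38.1 TPM in PBS libraries (long-term minus PBS difference 3.21, limma, adjusted p = 0.000577). Stfa2l1, a stefin of neutrophils, rose with short-term PM2.5 (35.0, 21.4 and 32.2 TPM in short-term and 5.97, 6.02 and 11.3 TPM in PBS libraries, adjusted p = 0.00108). Of 19 tested surface proteins, 10 rose and 0 fell with short-term PM2.5, and 9 rose and 0 fell with long-term PM2.5. After median-ratio scaling the short-term count was 16, beside 24.6% of all tested genes that rose. Il1r2, the decoy receptor for interleukin-1, had the largest short-term increase among those named, 3.25 (limma, adjusted p = 6.34e-05), and Itgb2, the beta chain of the leukocyte integrins, was higher in long-term than in short-term libraries by 1.09 (adjusted p = 0.00132).

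Fcer1g and Tyrobp, the adaptors through which the lectin receptors and Trem1 signal, rose in both exposed groups. Fcer1g had 304, 228 and 191 TPM in long-term libraries, 324, 362 and 331 TPM in short-term libraries and 84.8, 124 and 119 TPM in PBS libraries. The differences from PBS were 1.64 with short-term PM2.5 (limma, adjusted p = 0.00023) and 1.13 with long-term PM2.5 (adjusted p = 0.00295). Tyrobp rose by 0.83 with short-term PM2.5 (limma, adjusted p = 0.000711) and by 0.86 with long-term PM2.5 (adjusted p = 0.00144). Over all tested genes 11.7% rose and 40.3% fell with short-term PM2.5, and 9.51% rose and 1.72% fell with long-term PM2.5. The length and GC correction changed the shares that rose to 26.3% with short-term and 12.3% with long-term PM2.5. Of the 14 adaptors and kinases listed, 4 rose and 1 fell with short-term PM2.5, and 3 rose and 0 fell with long-term PM2.5. After the length and GC correction these counts were 11 and 0 with short-term and 6 and 0 with long-term PM2.5, and the long-term count of higher genes was 5 without short-term replicate 1 or 2. Of 5 ligands and calprotectin receptors, 2 rose and 0 fell with short-term PM2.5 and 1 rose and 0 fell with long-term PM2.5, or 4 and 2 higher after the length and GC correction. Without short-term replicate 3 the short-term count was 1, and without short-term replicate 1 or 2 the long-term count was 2. Among ligands, Pglyrp1, which encodes a ligand of Trem1, rose by 1.49 with short-term PM2.5 (limma, adjusted p = 0.000653) and by 1.14 with long-term PM2.5 (adjusted p = 0.00631). All 6 subunits of the phagocyte oxidase listed rose with long-term PM2.5, led by Cybb, its membrane catalytic subunit (88.9, 64.2 and 58.0 TPM in long-term and 19.3, 23.1 and 23.7 TPM in PBS libraries, difference 1.61, limma, adjusted p = 0.00176). That count was 4 to 6 without single libraries and 4 to 6 in the other alternatives. With short-term PM2.5 3 of the 6 rose, or 6 after each of the 3 other scalings and 5 without short-term replicate 1. Of 7 transcription factor genes of granulocytes, 3 rose and 2 fell with short-term PM2.5 and 0 passed in limma with long-term PM2.5, where 2 had an unadjusted p under 0.05, and where 2 rose without short-term replicate 1 and 1 without short-term replicate 2. Cebpd, a C/EBP factor induced in inflammation, had 492, 237 and 355 TPM in short-term and 124, 118 and 153 TPM in PBS libraries (difference 1.40, limma, adjusted p = 0.00112). Klf5, another of these factors, went the other way. It had 10.5, 14.4 and 11.8 TPM in short-term and 30.6, 29.6 and 31.5 TPM in PBS libraries (difference -1.26, limma, adjusted p = 0.000157). Which cells of the lung the transcripts of these factors came from was not tested.

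Markers of other cells, some of which make these receptors, also moved. Over all tested genes 9.51% rose and 1.72% fell with long-term PM2.5, and 11.7% rose and 40.3% fell with short-term PM2.5. Between the exposed groups 7.08% of all tested genes were lower in long-term libraries. The summed level of 10 alveolar macrophage markers was 1382 to 1668 TPM in long-term, 465 to 651 in short-term and 741 to 961 in PBS libraries, and 6 of the 10 rose with long-term PM2.5 while 1 rose and 3 fell with short-term PM2.5. That of 8 monocyte markers was 241 to 344 TPM in long-term, 209 to 333 in short-term and 189 to 246 in PBS libraries, with 1 of 8 higher in long-term and 3 higher and 1 lower in short-term libraries. For 10 interstitial macrophage markers the sums were 2402 to 2844 TPM in long-term, 1325 to 1748 in short-term and 1683 to 2180 in PBS libraries. Of the 10, 5 were higher in long-term libraries, and 4 were higher and 1 lower in short-term libraries. Apoe made up most of each sum, with a mean of 1951 TPM in long-term, 1019 in short-term and 1570 in PBS libraries. It was the 1 marker lower in short-term libraries, while C1qa, C1qb, C1qc and Ms4a7 were higher there, so the short-term sum mainly follows Apoe. Eosinophil markers summed to 16.6 to 59.9 TPM in long-term, 7.06 to 14.04 in short-term and 12.5 to 30.4 in PBS libraries, and 1 of 4 tested (Alox15) rose with long-term PM2.5. Ear6, another of them, was uneven within groups, with 1.78, 1.07 and 40.9 TPM in long-term and 17.5, 18.7 and 0.92 TPM in PBS libraries. The sums therefore partly follow Ear6. Markers of blood and vessels were lower in long-term libraries. Red cell markers, 7 genes of which 6 were tested, summed to 17929 to 30040 TPM in long-term, 35089 to 67320 in short-term and 50039 to 75476 in PBS libraries. With long-term PM2.5 4 of the 6 fell against PBS, and 5 of the 6 were lower than in short-term libraries, while with short-term PM2.5 0 passed in limma against PBS and 0 had an unadjusted p under 0.05. The 6 endothelial cell markers summed to 2587 to 2909 TPM in long-term, 3035 to 3462 in short-term and 3819 to 4127 in PBS libraries. Of these 6, 5 fell with long-term PM2.5, beside 1.72% of all tested genes, and 3 with short-term PM2.5, beside 40.3%. None of the markers in these lists was at 0 in all libraries. The part of these cells, and of the blood held in the lung, in the levels of the 10 genes was not tested.

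**Figure D4:**
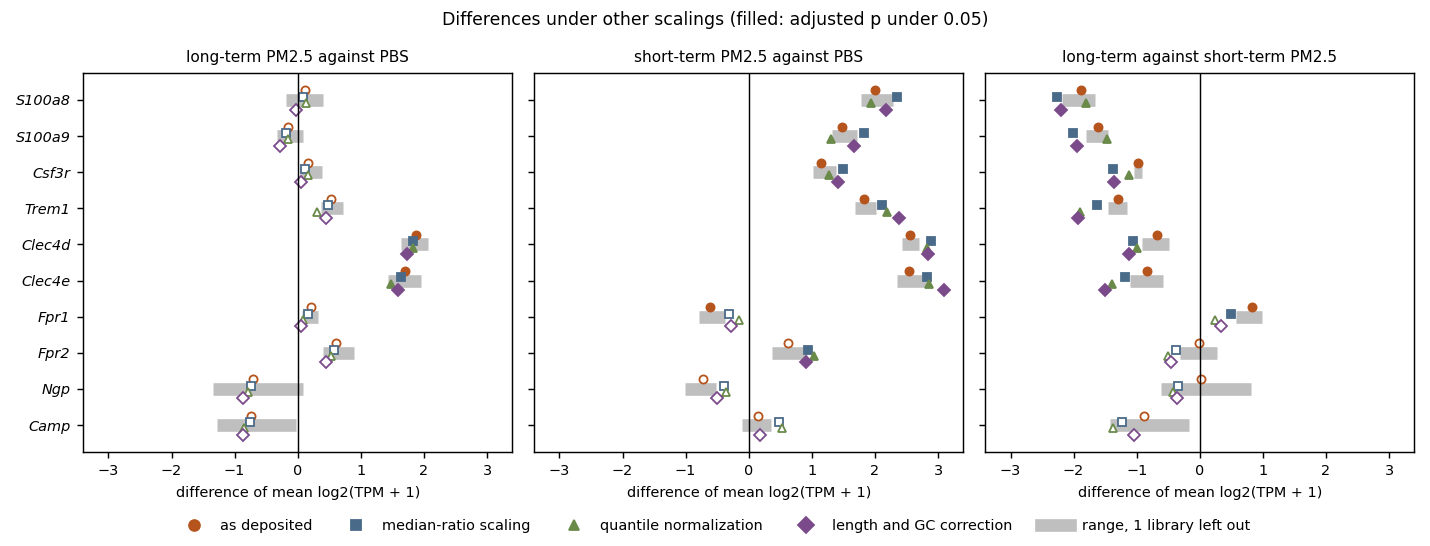
Difference of group means on the log2(TPM + 1) scale (horizontal axis) for each gene in the 3 comparisons, as deposited and under 3 other scalings (filled where the adjusted p was under 0.05), with a grey band for the range when each of the 9 libraries was left out in turn. The 6 genes that rose with short-term PM2.5 stay to the right of 0 and filled under all 4 scalings, Fpr1 is filled only as deposited in that comparison, and the bands of Ngp and Camp are the widest for long-term PM2.5 against PBS.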

How the data were processed

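mRNA was selected with oligo(dT), treated with a duplex-specific nuclease that removes abundant cDNA, and sequenced on a DNBSEQ instrument, per the labels' protocols. The authors deposited TPM for each gene and library in 1 table. The submitters' processing notes name HISAT2, Bowtie2, RSEM and DESeq2, without roles, and GRCm38.p6 for 8 of 9 samples. TPM keeps no read depth, so no counting interval is given. Genes that reached 1 TPM in 3 or more libraries were tested on log2(TPM + 1) with limma 3.58.1 in R 4.3.3, in 1 model with a mean per group, an intensity trend and Benjamini-Hochberg adjustment (threshold 0.05), and the fit was tested on simulated data. A fold on this scale understates changes of low genes. Ratios within libraries were compared with two-sided exact permutation tests. Alternatives were another pseudocount, filters, scalings, variance settings and designs, a correction for the length and GC content of transcripts (splines with 5 degrees of freedom, 199 tested genes without a length left out), and leaving out each library. Lengths came from GENCODE M21. The members and gene lists were chosen with earlier results of these data known. From each list of related genes, up to 3 with the smallest p per comparison were eligible to be named, plus Ly6g, Cxcr2, Mpo, Elane and Csf3, and the 5 genes most like the members by correlation.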

Additional observations from a re-analysis of the deposited data

Results flagged for a closer look

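For 7 of the 10 genes the direct limma test of long-term against short-term PM2.5 found a difference, beside 50.5% of all tested genes. On the log2(TPM + 1) scale the long-term minus short-term difference was -1.88 for S100a8, -1.62 for S100a9, -1.30 for Trem1, -0.98 for Csf3r, -0.83 for Clec4e, -0.68 for Clec4d and 0.82 for Fpr1. Of these calls, that of Clec4e was lost in 10 of 20 alternatives, that of Clec4d in 5 and that of Fpr1 in 3, for Fpr1 both with quantile normalization and after correcting for length and GC content. The exposed groups differ in the number of instillations (6 against 1, each at 10 mg/kg), and the time from the last one to collection is not given. Number of doses, total dose and time since exposure therefore cannot be told apart here. Both schedules are set against 1 PBS group, labelled as long-term.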

How the results depend on the processing

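In 20 alternative settings (19 for Trem1, which a mean of at least 5 TPM leaves out) Clec4d and Clec4e kept both calls against PBS, while S100a8, S100a9, Csf3r and Trem1 kept theirs between short-term PM2.5 and PBS and between the exposed groups. With library weights, a fit that did not reach its convergence tolerance, 5 members passed between long-term PM2.5 and PBS in place of 2. Of all tested genes 37.7% passed there, in place of 11.2%. Leaving out single libraries gave 2 members between long-term PM2.5 and PBS, 6 to 7 between short-term PM2.5 and PBS, and 5 to 7 between the exposed groups. The shares of all tested genes were 5.63% to 22.6%, 36.6% to 63.9% and 32.3% to 65.6% in the same order. With the replicate number as a block the member counts were 2, 6 and 5, in place of 2, 7 and 7. The shares of all tested genes were then 8.04%, 45.6% and 43.7%. Same-numbered libraries did not deviate together (correlations -0.286 to 0.262), so the numbers are not taken as pairs. Some differences changed sign, and the cause was not tested. Between long-term and short-term PM2.5, Ngp (0.01) was -0.03 with log2(TPM + 0.1), -0.351 with median-ratio scaling, -0.422 with quantile normalization, -0.477 with library weights, -0.356 with the length and GC correction and -0.61 to 0.817 without single libraries. Fpr2 was -0.311 to 0.268 without single libraries, and with the length and GC correction Lyn was -0.054 and Pik3cg -0.048, in place of 0.564 and 0.726, which had passed. Between long-term PM2.5 and PBS, S100a8 (0.11) was -0.035 with library weights, -0.023 with the length and GC correction and -0.191 to 0.397 without single libraries, where S100a9 was -0.333 to 0.09, Ngp -1.339 to 0.089, Cxcr2 -0.131 to 0.131 and Csf3 -0.014 to 0.105. Csf3 was -0.123 with quantile normalization and -0.05 with the length and GC correction. Between short-term PM2.5 and PBS, Camp was -0.105 to 0.347 without single libraries. All tested genes passing between long-term PM2.5 and PBS numbered 1571, with 779 to 3155 without single libraries and 920 to 5273 in the other alternatives. Between short-term PM2.5 and PBS they numbered 7268, and 11335 with library weights, and between the exposed groups 7061, with 4469 without long-term replicate 1 and 11345 with library weights. Read depth is unknown, so how it limits low genes such as Trem1 and Clec4e cannot be given.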
